A study of Mus musculus with 12 samples.

Results

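Cytosolic ribosomal proteins are the protein parts of the ribosome, the machine that reads mRNA and builds protein. Each ribosome holds a small subunit, which decodes the mRNA and carries proteins named Rps, and a large subunit, which joins amino acids and carries proteins named Rpl. Their mRNAs are short and abundant in nearly every cell, are made in matched amounts, and in mammals usually begin with a run of pyrimidines, the 5′ terminal oligopyrimidine motif, through which their translation follows mTORC1, a growth-regulating kinase complex. Adult neurons keep making these proteins, since protein synthesis supports their upkeep and the lasting change of synapses.

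The genes described here were all rows of the count files named Rpl or Rps followed by digits and at most a letter or an l, together with Rpsa, Rplp0, Rplp1 and Rplp2, leaving out the Rps6k kinases. This rule found 83 of 24421 genes, of which 51 are named for the large and 32 for the small subunit. GENCODE vM21 lists 1 of the 83, Rps4l, as a transcribed processed pseudogene and not as a protein-coding gene. It used names only and no measured value. The libraries came from the dorsal raphe (DR), a midbrain nucleus whose serotonergic neurons project to the forebrain, with 1 library per mouse. The 4 controls were Sert Cre/+; Stat3 fl/+ littermates, which also carry the Cre driver and 1 floxed Stat3 allele, and the 8 STAT3 KO mice were Sert Cre/+; Stat3 fl/fl. All were adults on a mixed C57BL/6 x 129 background, and each genotype held equal numbers of males and females. Cre is driven by the serotonin transporter gene and removes exons 18 to 20 of Stat3, which encodes a transcription factor of cytokine signalling, in cells that express the transporter. The tissue was a piece of whole DR, so it also held cells in which Stat3 was not targeted, and fewer cells of a type cannot be told apart from less RNA per cell.

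Counting depth was 24379588 to 27849492 gene counts per control library and 27324999 to 29645210 per KO library. Stat3 itself, counted over the whole gene, was at 66.6 ± 1.49 CPM (gene counts scaled to a common library total, TMM-normalised; SD, n = 4) in controls and 66.3 ± 2.72 (n = 8) in KO, so gene totals did not resolve the deleted exons. The serotonergic genes were present in every library, with Tph2, the enzyme of serotonin synthesis, at 540 to 879 CPM and Slc6a4, the serotonin transporter, at 151 to 405 CPM. A few libraries held RNA of neighbouring regions. Slc17a7, a forebrain excitatory marker, was at 116 CPM in control 4 and at most 50.3 CPM elsewhere, and Ttr, the main choroid plexus mRNA, was at 202 CPM in KO 16 and 213 CPM in KO 8 and at most 3.63 CPM elsewhere.

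The start of these mRNAs was examined because the pyrimidine run is what the class is known for. RefSeq promoters of the GRCm38.p6 assembly were found for 62 of the 83 genes, with 74 start sites. A C followed by at least 4 further C or T, read on the transcript strand and beginning within 3 bases of the start, was present at 26 of the 74 starts (35.1%), against 3792 of 32851 starts of all genes (11.5%). Below are windows of 30 bases, 15 before and 15 from the start, for 5 genes with a run and for Rpl41 and Rps25 without one. Capitals mark the stretch of C and T from the first C within 3 bases of the start to the next purine or the end of the window, and pyrimidines before it are not marked. The genes shown come from the upper and the lower end of the differences below, apart from Rplp2, Rps6 and Rpl13a. Rplp2 is a stalk gene that followed the class little, and Rps6 and Rpl13a are often used as reference mRNAs.
Rpl35 (chr2:39005117-39005146, minus strand): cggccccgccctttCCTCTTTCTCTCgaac
Rplp2 (chr7:141447636-141447665, plus strand): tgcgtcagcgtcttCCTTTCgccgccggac
Rpl15 (chr14:18270972-18271001, minus strand): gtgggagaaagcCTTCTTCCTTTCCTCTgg
Rps6 (chr4:86857353-86857382, minus strand): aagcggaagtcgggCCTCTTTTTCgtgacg
Rpl13a (chr7:45128731-45128760, minus strand): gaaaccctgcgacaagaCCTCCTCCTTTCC
Rpl41 (chr10:128549154-128549183, minus strand): cacacgggccggctcggaagtgacgacacc
Rps25 (chr9:44407699-44407728, plus strand): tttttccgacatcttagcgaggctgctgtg
A window without the run says only that these letters are not at the annotated start. GENCODE vM21 begins the genes shown further upstream, whether or not they have a run. Of those without a run, Rpl41 begins at position 128549305 of chromosome 10 and Rps25 at position 44407139 of chromosome 9. Among those with a run, Rpl35 begins at position 39005624 of chromosome 2 and Rplp2 at position 141447370 of chromosome 7.

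The 83 genes together took 0.984% to 1.23% of the gene counts of a library. Levels of single genes are given as CPM per kilobase (kb) of transcript, since a longer transcript yields more reads. Over the 76 genes with at least 10 CPM on average, levels ran from 23.3 to 742 CPM per kb with a median of 163, and 48 of the 76 lay between 100 and 300 CPM per kb. Genes of both subunits lay along most of the order, and of all 83 genes the 6 lowest were of the large subunit.

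**Figure D1:**
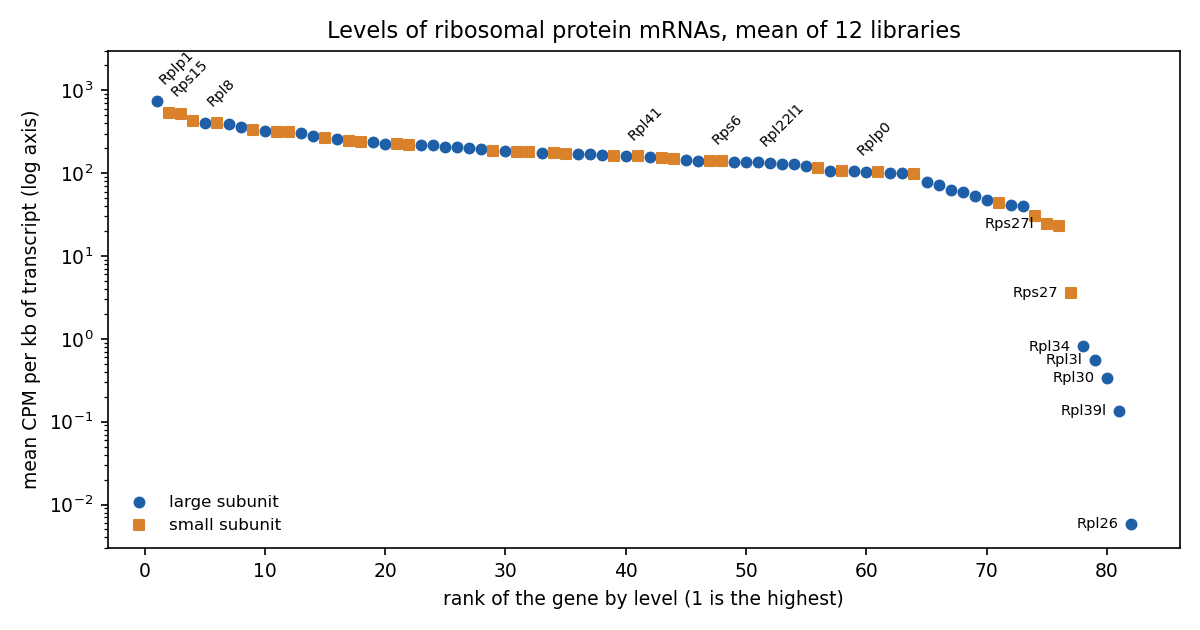
Mean level of each ribosomal protein gene over 12 libraries, in CPM per kb of transcript on a log axis, against its rank; circles are large and squares small subunit genes, and Rpl10l, at 0, is left out. Most genes sit between 100 and 300 CPM per kb, and a tail of 6 genes from Rps27 to Rpl26 lies below 4 CPM per kb.

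Rplp1, an acidic protein of the ribosomal stalk that recruits elongation factors, had the highest level at 710 CPM per kb in controls and 757 ± 65.4 (SD, n = 8) in KO. Rps15, near the decoding site of the small subunit, followed at 534 CPM per kb over all libraries, then Rps21 at 514, Rps14 at 424 and Rpl8 at 407. Rps15 and Rps21, neighbours in this order, differed by less than the SD of either gene. The stalk is built on Rplp0, which stood at 105 CPM per kb, and its second acidic protein, Rplp2, stood at 236 CPM per kb, so the 3 stalk mRNAs were not at equal levels. Rpsa, a small subunit protein that is also known as a laminin receptor, was at 160 CPM per kb.

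At the low end, Rps20 was at 23.3 CPM per kb, but the annotated transcript used for it is 3706 nucleotides (nt) long, and a shorter one would raise this level. The remaining 7 of the 83 genes had under 10 CPM. Rps27, a zinc-finger protein of the small subunit, had 19 to 52 counts per library, and 98.5% of its 75-base windows also occur in other annotated genes, foremost its retrogene Rps27rt, which was listed at 0 counts in every library. Rpl34 had 6 to 16 counts, Rpl30 had 2 to 9 counts, and Rpl26 had 1 count in all 12 libraries together, although each is a core protein of the large subunit. Of the windows of these 3 genes, 41.4%, 65.1% and 57.5% are shared with other genes, nearly all pseudogenes. Over the whole class, 79 of 83 genes share at least 1 window with another gene and 42 share more than 50% of them. A level can therefore be too low, or hold reads of a copy, depending on how reads that match several places were handled.

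For 7 pairs of close relatives the class holds both genes. Rpl3l, which replaces Rpl3 in striated muscle, had 5 to 26 counts per library and 0.555 CPM per kb, against 323 CPM per kb of Rpl3, a ratio of 582. Rpl10l and Rpl39l, both known from the testis, had 0 counts in all and 0 to 4 counts per library, while Rpl10 was at 130 and Rpl39 at 71.6 CPM per kb. With 0 counts, Rpl10l was below the floor of 3 counts, which is 0.101 to 0.123 CPM per library and covers counting error only.

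Other relatives were well expressed. Rpl22l1 reached 134 CPM per kb beside 218 of Rpl22, a ratio of 1.62 for Rpl22 over Rpl22l1. Rpl7l1 stood at 40.3 CPM per kb beside 184 of Rpl7, and Rps4l, the annotated pseudogene, at 30.6 beside 179 of the X-linked Rps4x. Rps27l, a target of p53, was at 24.2 CPM per kb and so 6.77 times its relative Rps27, whose reads are the uncertain ones above. Over the 12 libraries the members of a pair moved together loosely, with r = 0.65 for Rpl7 and Rpl7l1, 0.50 for Rpl22 and Rpl22l1, and 0.32 for Rps4x and Rps4l, as descriptions over libraries that share their depth.

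The first comparison asked whether loss of STAT3 in serotonergic cells went with a difference in these mRNAs. Of the 79 genes that passed the filter on low counts, 73 had a higher mean in KO and 6 a lower one, where 49.4% of all 15453 genes tested were higher in KO. The median log2 difference was 0.08 over the 79 genes and -0.00 over all genes on this scale. No ribosomal protein gene passed an adjusted p of 0.05 in edgeR's quasi-likelihood test (0 of 15453 genes did, or 0%), and the smallest adjusted p among them was 0.615. At an unadjusted p under 0.05, 10 of the 79 passed, all higher in KO, against 7.66% of all genes. That count was 1 without control 13, 4 without control 3, 5 without KO 6 or KO 15, 6 without KO 8, 26 without KO 7 and 27 without control 4. It was 23 with library sizes alone in place of TMM, 17 with totals that include unassigned reads and 22 with sex as a covariate. With library sizes alone, 77 of the 79 and 61.1% of all genes had a higher mean in KO. These genes moved together over the libraries, so counts of them are not separate observations of the same difference. This holds also for the splits by subunit, sex and shared windows below.

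Rpl41, the shortest ribosomal protein, showed the largest difference among the well-counted genes. Its CPM was 54.6 in control 13, 72.3 in control 4, 65.9 in control 3 and 56.1 in control 11, and ran from 65.5 over a median of 72.7 to 87.9 in KO. All 8 KO libraries lay above the control mean, but control 4 was above KO 10, KO 16, KO 14 and KO 7, so the groups overlapped. The log2 difference was 0.24 ± 0.08 (SE), with an exact permutation p of 0.0222 (two-sided) and an adjusted p of 0.615 in edgeR's test.

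Rpl35, Rpl36 and Rpl24, all proteins of the large subunit, followed with log2 differences of 0.20 ± 0.08, 0.18 ± 0.07 and 0.18 ± 0.07 (SE). Rpl35 was at 30.4, 38.6, 36.5 and 37.4 CPM in controls 13, 4, 3 and 11, and at 35.04 to 47.1 CPM in KO with a median of 40.4. Rpl24 was at 54.2, 68.1, 61.8 and 63.8 CPM in the same controls and at 62.7 to 78.9 CPM in KO with a median of 69.1. In each of the 3, control 13 was the lowest library of its group and KO 7 the lowest of the other. Exact permutation p values were 0.0364 for Rpl35, 0.0646 for Rpl36 and 0.0283 for Rpl24, and every adjusted p was 0.615.

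Rps29, a zinc-binding small subunit protein, was at 120 ± 12.4 CPM (SD, n = 4) in controls and 134 ± 10.2 (n = 8) in KO. Its log2 difference was 0.16 ± 0.07 (SE), with an adjusted p of 0.630 in edgeR's test. Rps27 had the largest positive difference of the 79, 0.27 ± 0.22, but from 19 to 52 counts per library, and its exact permutation p was 0.277.

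Among the 6 genes with a lower mean in KO were Rpl3l at -0.39 ± 0.34, Rpl34 at -0.12 ± 0.29, Rplp0 at -0.01 ± 0.05, Rps2 at -0.01 ± 0.05 and Rpl15 at -0.01 ± 0.05 (log2 difference ± SE). Except for Rpl3l, each of these lay within 1 SE of 0, and none passed the test. Rplp0, the scaffold of the stalk, was at 144, 146, 136 and 146 CPM in controls 13, 4, 3 and 11 and at 133 to 163 CPM in KO with a median of 138. Its 2 partners were higher in KO by 0.09 ± 0.06 for Rplp1 and 0.10 ± 0.08 for Rplp2, neither past the test.

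The classical reference mRNAs behaved like the middle of the class. Rps6, the small subunit protein that S6 kinases phosphorylate, was at 119 ± 3.49 CPM (SD, n = 4) in controls and 126 ± 8.53 (n = 8) in KO, a log2 difference of 0.08 ± 0.05 (SE) and an exact permutation p of 0.143. Rpl13a was at 306 ± 18.1 and 330 ± 28.7 CPM, a difference of 0.11 ± 0.06 with an exact permutation p of 0.170. Both groups overlapped in each.

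By subunit, 42 of 47 large and 31 of 32 small subunit genes were higher in KO, with medians of 0.08 and 0.08. Genes with a pyrimidine run at a start had a median of 0.08 over 25 genes, and those with an annotated start but no run had 0.09 over 34 genes. The 4 genes on the X chromosome, Rpl10, Rpl36a, Rpl39 and Rps4x, were higher in KO by 0.06 to 0.14. With each animal left out, the highest of them, Rpl39, ran from 0.07 to 0.21 and the lowest, Rps4x, from 0.03 to 0.08. None of the 79 genes had values that did not overlap between the genotypes, which 0.447% of all genes tested had.

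**Figure D2:**
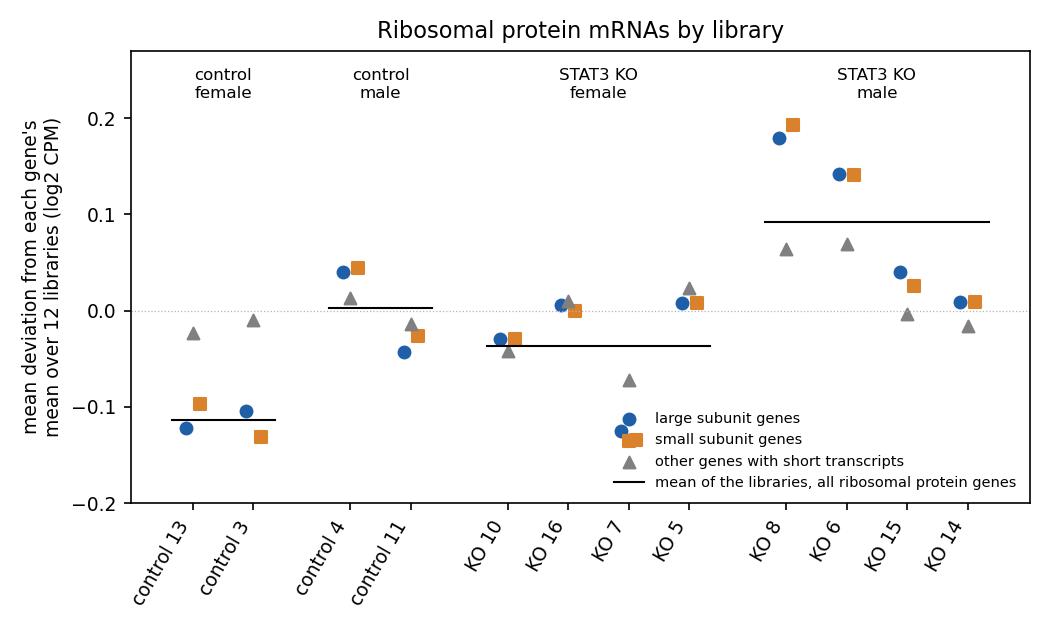
Mean deviation of large subunit genes (circles), small subunit genes (squares) and other genes with short transcripts (triangles) from their own mean over 12 libraries, in log2 CPM, for each library; lines give the mean over the libraries of a genotype and sex, for all ribosomal protein genes at 10 CPM or more. Circles and squares of a library sit together, KO 8 and KO 6 are highest, and control 13, control 3 and KO 7 are lowest.

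The libraries ordered themselves the same way for most genes of the class. The mean deviation of the 76 genes with at least 10 CPM was -0.11 in control 13, 0.04 in control 4, -0.12 in control 3 and -0.04 in control 11, and ran from -0.13 in KO 7 over a median of 0.01 to 0.18 in KO 8, in log2 units. The mean over libraries was -0.06 ± 0.07 (SD, n = 4) in controls and 0.03 ± 0.10 (n = 8) in KO, and the KO range covered the whole control range. KO 8 held the highest value of 60 of the 76 genes and KO 6 of 13, while KO 7 held the lowest of 35, control 13 of 23 and control 3 of 15. The 2 highest libraries were from KO males and the 3 lowest from females.

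**Figure D3:**
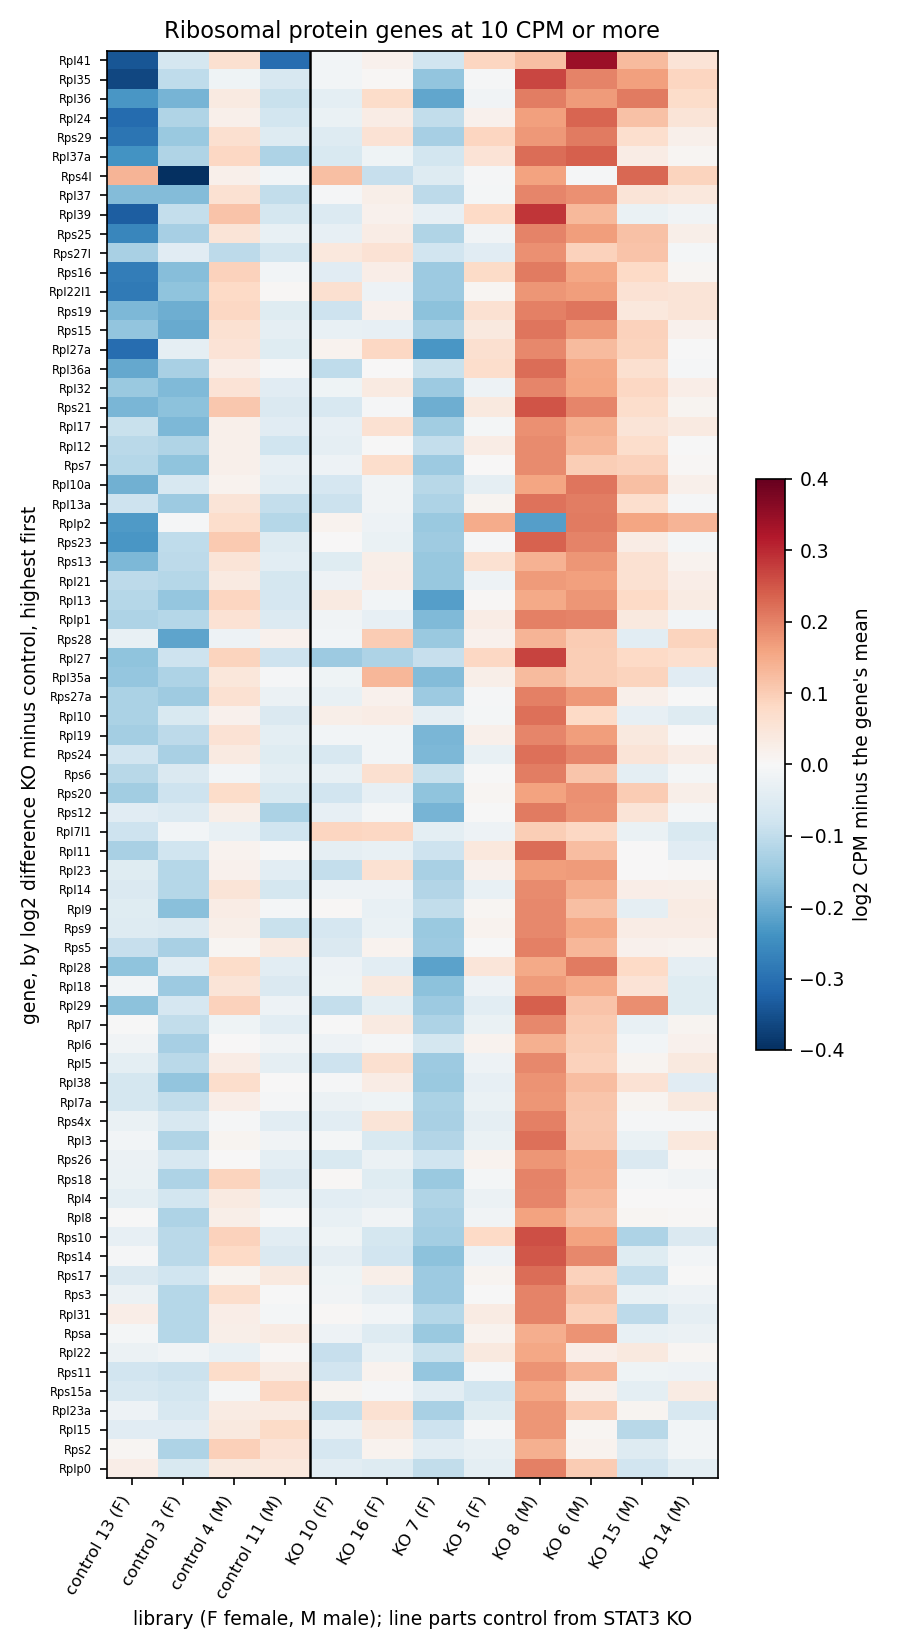
Log2 CPM of ribosomal protein genes with at least 10 CPM in 12 libraries, each gene minus its own mean; rows run from the largest positive to the largest negative log2 difference between KO and control, and columns from control females to KO males. Nearly whole columns share a colour, with KO 8 and KO 6 red and control 13, control 3 and KO 7 blue.

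The second comparison set males against females, with genotype as a covariate. The means of 77 of 79 genes were higher in males, where 49.6% of all genes tested were, and the median log2 difference was 0.13 against -0.00 over all genes. No ribosomal protein gene passed an adjusted p of 0.05 in edgeR's quasi-likelihood test, which 13 of 15453 genes (0.0841%) did, and the smallest adjusted p among them was 0.444. At an unadjusted p under 0.05, 58 of 79 passed, all higher in males, against 7.20% of all genes. Since these genes moved together over the libraries, the 58 are not separate observations of the same difference.

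Among the lowest p values were those of Rps25, Rpl36, Rps27, Rps15 and Rpl35, and Rps25 falls outside the rule for named genes and was chosen after its values were seen. Rps25, known for its role in initiation at internal ribosome entry sites, was at 93.1 ± 6.63 CPM (SD, n = 6) in females and 105 ± 6.37 (n = 6) in males. Females ran from 82.4 over a median of 93.7 to 101 CPM and males from 96.7 over 105 to 113 CPM, so the sexes overlapped. The females KO 16 and KO 5 lay above the lowest male, control 11, and the male KO 14 lay below KO 16. Its log2 difference was 0.18 ± 0.04 (SE), with an adjusted p of 0.444 in edgeR's test.

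Rps15 was at 231 to 273 CPM in females with a median of 251 and at 259 to 309 CPM in males with a median of 280. Its log2 difference was 0.17 ± 0.04 (SE). DESeq2 with the same terms gave an adjusted p of 0.0454 for Rps25 and 0.0388 for Rps15, and 3 ribosomal protein genes were among its 24 calls (0.160% of genes it adjusted). The calls thus depended on the tool.

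Values of Rpl7a, also chosen after they were seen, at 141 to 152 CPM in females and 154 to 174 CPM in males, did not overlap between the sexes, nor did those of the sparsely counted Rps27. That is 2 of 79 genes, against 0.453% of all genes. Among the X-linked genes, the log2 difference between males and females was 0.15 ± 0.04 (SE) for Rpl36a, 0.14 ± 0.06 for Rpl39, 0.08 ± 0.04 for Rps4x and 0.06 ± 0.04 for Rpl10, with a median of 0.11 beside 0.13 for the autosomal genes. Rpl7l1, at -0.01 ± 0.04, and Rpl3l, at -0.35 ± 0.32, were the only tested genes of the class with a lower mean in males.

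Genotype and sex were then read together. Among females, 71 of 79 genes had a higher mean in KO with a median log2 difference of 0.07, and among males 75 of 79 with a median of 0.09. Among controls, 75 of 79 had a higher mean in males with a median of 0.11, and among KO mice 77 of 79 with a median of 0.13. The first 3 of these medians rest on 2 control mice of each sex that enters them, and the last on 4 KO mice of each sex. The interaction of genotype and sex passed an adjusted p of 0.05 in edgeR's test for 0 of the 79 genes and 0 of 15453 genes (0%), and an unadjusted p under 0.05 for 0 of the 79, against 5.49% of all genes. As a share of gene counts, the class took 0.999% ± 0.0209 (SD, n = 2) in control females, 1.07% ± 0.0367 (n = 2) in control males, 1.06% ± 0.0485 (n = 4) in KO females and 1.15% ± 0.0739 (n = 4) in KO males.

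The third question was how closely these mRNAs follow each other. Over 12 libraries the median Pearson r of log2 CPM was 0.81 for the 2850 pairs among the 76 genes, with quartiles of 0.69 and 0.89, and 53.2% of pairs were above 0.8. Over all 55035786 pairs of genes with at least 10 CPM, the median was 0.00 and 0.623% of pairs were above 0.8. Pairs within the large subunit, within the small subunit and across subunits had medians of 0.80, 0.82 and 0.82. These are descriptions over libraries that share depth and composition. Other lists of genes also followed the mean of the class, with values given below.

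**Figure D4:**
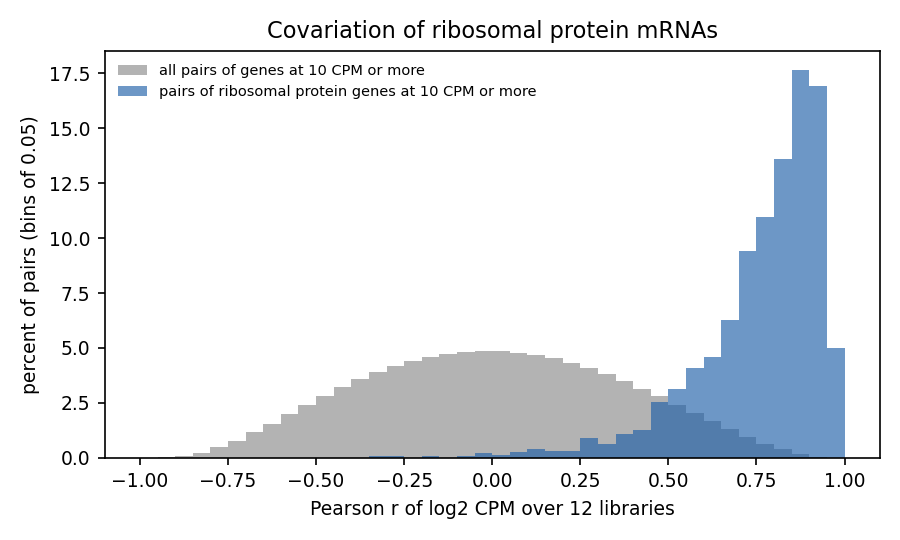
Distribution of Pearson r of log2 CPM over 12 libraries, in percent of pairs per bin of 0.05, for pairs of ribosomal protein genes (blue) and for all pairs of genes with at least 10 CPM (grey). The blue distribution has its median at 0.81 and the grey one at 0.00.

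The group means were then taken out. After each gene's genotype mean was subtracted, the median r over the pairs was 0.81, and after the mean of each genotype and sex was subtracted it was 0.73. Without KO 8 and KO 6, the 2 libraries farthest from the median, it was 0.64. The first principal component held 76.9% of the variance of the 76 genes and the second 8.61%. Because the subunits rose and fell together, the ratio of large to small subunit CPM stayed between 1.52 and 1.55 in all 12 libraries, at 1.53 ± 0.0136 (SD, n = 4) in controls and 1.54 ± 0.00920 (n = 8) in KO. By sex it was 1.54 ± 0.00604 (n = 6) in females and 1.527 ± 0.0105 (n = 6) in males, with values that overlapped.

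Rps27a, a fusion of ubiquitin and a small subunit protein, had the most typical pattern, followed by Rpl19, Rplp1 and Rps24. Rps27a was at 142, 161, 140 and 152 CPM in controls 13, 4, 3 and 11 and at 140 to 178 CPM in KO with a median of 155. Its highest libraries were KO 8 and KO 6, as for the class.

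The genes that followed the class least were the sparsely counted Rpl3l and Rpl34, then Rplp2 and Rps4l. Rplp2 was at 84.5, 104, 98.7 and 91.5 CPM in controls 13, 4, 3 and 11 and at 84.9 to 114 CPM in KO with a median of 104. Its lowest KO library was KO 8, the library in which 60 of the 76 genes were highest. Rps4l was at 31.4, 29.0, 19.0 and 28.4 CPM in the same controls, so control 3 stood well below the other 3, and at 26.8 to 33.5 CPM in KO. Rplp2 and Rpl41 had the largest positive weights on the second component and Rps4l a large negative one.

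Outside the class, the genes closest to its mean over 12 libraries were Fau (r = 0.97), which encodes another small subunit protein, Eif3h (0.97), a subunit of initiation factor 3, Pfdn5 (0.97), a prefoldin subunit, Nme2 (0.96), a nucleoside diphosphate kinase, and Sod1 (0.95), superoxide dismutase. Without KO 8 and KO 6 these values were 0.89 to 0.94. Of the ribosomal proteins that the naming rule left out, 5 were tested, Fau, Gnb2l1, Rps3a1 and Rpl36al among them, and 5 of 5 had a higher mean in KO, with a median log2 difference of 0.07, and 5 of 5 in males, with a median of 0.12.

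Other genes of the translation pathway were counted in the same way. Of 36 tested initiation factors, 19 were higher in KO with a median log2 difference of 0.00, and 0 passed the test. Of 8 elongation factors, 7 were higher with a median of 0.05. Of 41 ribosome biogenesis factors, 24 were higher with a median of 0.00, and of 77 mitochondrial ribosomal proteins, 45 were higher with a median of 0.01. The 14 tested host genes of small nucleolar RNAs, several of which are themselves transcripts with pyrimidine runs, had a median of 0.09, with 12 higher. Of 31 proteasome subunits 20 were higher with a median of 0.01, and of 80 nuclear subunits of oxidative phosphorylation 41 with a median of 0.00. Among 20 regulators of mTORC1 and of pyrimidine-run mRNAs, 8 were higher, with a median of -0.01. None of these genes passed an adjusted p of 0.05 by genotype in edgeR's test. Most of these lists followed the class over the libraries. The r of their mean deviation with that of the class was 0.90 for mitochondrial ribosomal proteins (n = 12 each). It was 0.86 for host genes of small nucleolar RNAs, 0.86 for biogenesis factors, 0.84 for proteasome subunits and 0.83 for elongation factors. Initiation factors had 0.77, oxidative phosphorylation subunits 0.76 and mTORC1 regulators -0.50.

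By sex, means were higher in males for 27 of 36 initiation factors (median log2 difference 0.05), 6 of 8 elongation factors (0.07), 9 of 14 host genes of small nucleolar RNAs (0.06), 33 of 41 biogenesis factors (0.05), 68 of 77 mitochondrial ribosomal proteins (0.05), 30 of 31 proteasome subunits (0.05) and 72 of 80 nuclear subunits of oxidative phosphorylation (0.07). Only 8 of 20 mTORC1 regulators were, with a median of -0.03. Each of these medians was below the 0.13 of the ribosomal protein genes. One gene of these lists, the X-linked initiation factor gene Eif2s3x, passed edgeR's test of sex, with a log2 difference of -0.59 and an adjusted p of 0.000218, and was lower in males.

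Transcript length moved with both comparisons. Among other genes with at least 30 CPM, the median log2 difference between KO and control fell from 0.04 for transcripts up to 500 nt to -0.02 for those over 4000 nt, and the difference between males and females from 0.07 to -0.01. Ribosomal protein genes of the same classes, taken at 10 CPM or more, stood higher, with 0.09 by genotype and 0.12 by sex for transcripts up to 500 nt. In the class of 700 to 1000 nt, the values were 0.09 and 0.13 for 22 ribosomal protein genes and 0.02 and 0.04 for 280 other genes. Without a CPM cut, the 242 other genes up to 500 nt had medians of 0.06 by genotype and 0.03 by sex.

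**Figure D5:**
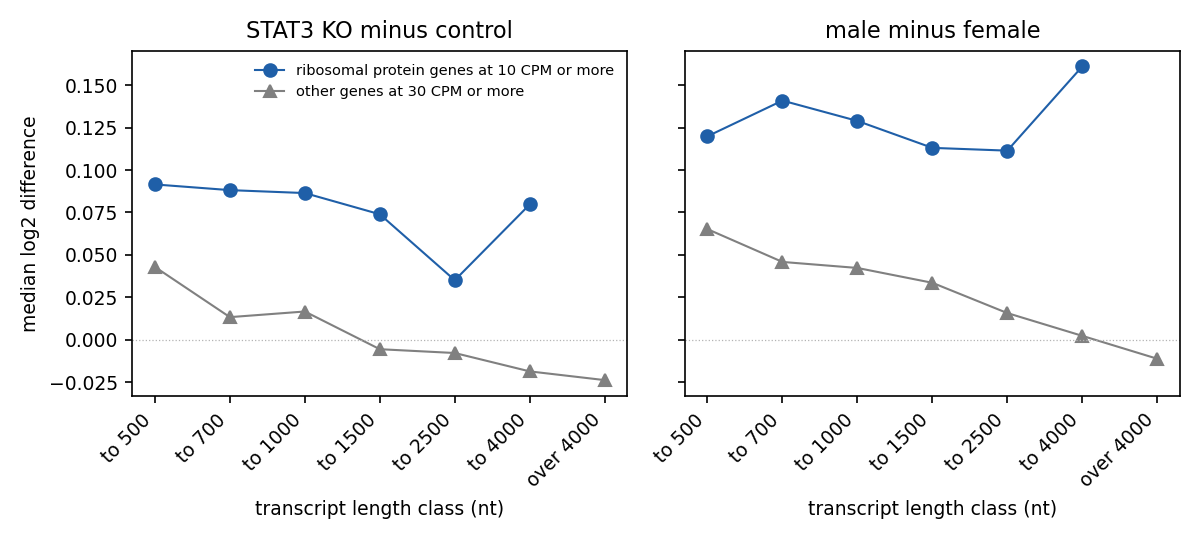
Median log2 difference by class of transcript length for ribosomal protein genes with at least 10 CPM (circles) and other genes with at least 30 CPM (triangles), KO minus control on the left and male minus female on the right. Triangles fall from short to long transcripts, and circles lie above them in every class that holds ribosomal protein genes.

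Over the libraries, the mean deviation of 453 other genes under 1000 nt followed that of the class with r = 0.87 (Spearman's rho 0.78, n = 12), and 0.67 without KO 8 and KO 6. It ran from -0.07 in KO 7 to 0.07 in KO 6, a narrower range than that of the class. The 2226 genes over 4000 nt went the other way, with r = -0.79 (Spearman's rho -0.61, n = 12), and -0.53 without KO 8 and KO 6. The part of transcript length, or of what sets it, in the differences above was not tested.

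Depth and composition moved less with the class. The r of its mean deviation was 0.35 with gene counts, -0.22 with the share of reads given to no gene and 0.26 with the TMM factor (n = 12 each). Markers of other cells moved with some libraries. The r of their mean deviation with that of the class was 0.57 for 8 endothelial, 0.54 for 1 tested blood, 0.52 for 7 tested choroid plexus and 0.50 for 9 microglial markers (n = 12 each). It was 0.25 for astrocyte, 0.16 for forebrain excitatory, 0.10 for oligodendrocyte, -0.12 for ependymal and -0.32 for pan-neuronal markers. All 8 endothelial markers had a higher mean in males, with a median log2 difference of 0.09. The 8 cerebellar markers, Zic1 and Gabra6 among them, were all lower in males, with a median log2 difference of -1.73 (8 of 8 at an unadjusted p under 0.05 and 0 past an adjusted p of 0.05 in edgeR's test) and a summed level of 89.9 to 682 CPM in females and 80.4 to 147 CPM in males. All 8 had a higher mean in KO, with a median of 0.80. Their r with the class was -0.36 and Spearman's rho -0.63. The 10 forebrain excitatory markers all had a lower mean in KO, with a median of -1.20, and summed to 151 to 923 CPM in controls and 184 to 305 CPM in KO, and the 8 choroid plexus markers to 39.6 to 54.2 CPM in controls and 42.6 to 271 CPM in KO. All 8 ependymal markers had a higher mean in KO, with sums of 24.2 to 68.0 CPM in controls and 36.5 to 91.3 CPM in KO. Means were lower in KO for 9 of 9 oligodendrocyte markers (median -0.05), 7 of 9 pan-neuronal markers (-0.07), 7 of 8 endothelial markers (-0.03) and 6 of 9 microglial markers (-0.02), and higher for 7 of 8 astrocyte markers (0.05) and 9 of 11 serotonergic markers (0.03, r with the class 0.35). By sex, 9 of 10 forebrain markers had a higher mean in males (median 0.72) and 8 of 8 ependymal markers a lower one (-0.25). The oligodendrocyte markers summed to 14489 to 16029 CPM in controls and 12647 to 16887 CPM in KO. The part of these cells in the ribosomal protein results was not tested beyond leaving out control 4, KO 8 and KO 16, chosen for their markers after seeing the data. Of the 79 genes, 21 then passed an unadjusted p under 0.05 by genotype, against 13.1% of all genes, with 73 higher in KO and a median log2 difference of 0.09. By sex 34 passed, against 4.35% of all genes, with 76 higher in males and a median of 0.10.

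The direction was the same in genes with few and with many reads that copies elsewhere could share. Among 11 genes with under 10% of their windows shared, 11 had a higher mean in KO and 10 in males, with medians of 0.08 and 0.14. Among 39 genes with 50% or more shared, 37 and 39 did, with medians of 0.09 and 0.12. The median pairwise r was 0.74 in the first set and 0.82 in the second.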

How the data were processed

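The authors took DR tissue of 4 controls and 8 STAT3 KO mice, prepared 1 library per animal and mapped single reads with STAR 2.5.0b to mm10, per the labels. The deposited values are raw counts per gene symbol; the read counter, annotation and use of strand are not given in the sources used here, nor is how reads with several matches were counted. Lines for reads given to no gene or to several were left out (13.9% to 15.8% of reads).

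From these counts, CPM with TMM factors and log2 CPM (prior count 2) were computed. The main test was edgeR 4.0.16's two-sided quasi-likelihood test in R 4.3.3, fitted on all 15453 genes that filterByExpr kept (10 counts per library, 15 in total), with Benjamini-Hochberg adjustment over all of them at 0.05. Of the 83 ribosomal protein genes, 79 passed. The standard error is the log2 difference divided by the root of the test statistic. Exact permutation tests ran over 495 splits of the animals, with a smallest p of 0.00202. Genotype was fitted alone, sex with genotype. P values measure the spread between animals, 1 library each; over 66 pairs, libraries differed by 5.37 to 31.2 times sampling noise, so none was a copy. The authors' own test was DESeq2 1.6.3; DESeq2 1.42.0 and limma 3.58.1 gave alternatives. Tests were checked on simulated counts.

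Genes were matched to GENCODE vM21 for transcript length, taking the shortest coding transcript with a consensus coding sequence, and for 75-base windows shared with other genes; promoters came from RefSeq. The genes and lists were chosen with earlier results of these data known. Genes were named if past the test, or among the 6 largest rises or falls, the 5 highest or lowest levels, the 4 most or least typical patterns or the 4 largest SDs, or if stalk, X-linked, reference or paired paralog genes; a few genes are not reported here.

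Alternatives were RLE, library size only, totals with unassigned reads, other count filters, sex as a covariate, voom with quality weights, a prior count of 0.5, and each of 12 animals left out.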

Additional observations from a re-analysis of the deposited data

Results flagged for a closer look

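In 3 of 76 groups of libraries examined, 1 library stood far from the others of its group, where chance alone gives about 3.8, and no explanation was weighed. Rplp0, the stalk scaffold, was at a log2 CPM of 7.09 in control 3 against 7.18 to 7.19 in the other controls. Rpl8, a protein near the catalytic centre of the large subunit, was at 8.31 in control 3 against 8.43 to 8.46. Rps2, of the small subunit, was at 6.997 in KO 8 against 6.79 to 6.87 in the other KO libraries. Control 3 was low and KO 8 high for most genes of the class.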

How the results depend on the processing

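By genotype, 0 ribosomal protein genes passed an adjusted p of 0.05 under every alternative run, 67 to 77 of the genes each one tested had a higher mean in KO (78 of 84 with the ribosomal proteins outside the naming rule added), and the median log2 difference was 0.06 to 0.11. The lowest count, 67, came from voom with quality weights, and 77 was reached with library size only, with totals that include unassigned reads and without control 4. Library size only moved the median of all genes to 0.02 (61.1% higher). The count at an unadjusted p under 0.05, 10 in the report, depended on the setting. It was 23 with library size only, 17 with totals that include unassigned reads, 22 with sex as a covariate and 21 without control 4, KO 8 and KO 16. It ran from 1 to 27 with each animal left out, lowest without control 13 and highest without control 4 (4 without control 3, 26 without KO 7, 6 without KO 8, 5 without KO 6 and 5 without KO 15).

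By sex, 76 to 78 genes were higher in males with medians of 0.10 to 0.14. The count past an adjusted p of 0.05 was 3 with DESeq2 and 0 with library size only, without the genotype term and with libraries left out, the alternatives run for sex. The count at an unadjusted p was 34 without control 4, KO 8 and KO 16, and 42 to 63 with each animal left out. The interaction gave 0 to 1 genes at an unadjusted p with each animal left out. The median pairwise r of the 79 tested genes, 0.80, was 0.71 to 0.83 under its planned and added alternatives; for the 76 genes with at least 10 CPM it was 0.64 without KO 8 and KO 6. The difference in summed CPM between KO and control, 550 CPM, was 365 to 768 with each animal left out.

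Differences near 0 changed sign. With library size only, Rplp0, Rps2 and Rpl15 were at 0.0083, 0.0092 and 0.014, and with totals that include unassigned reads at 0.0033, 0.0040 and 0.0090. With voom, Rpsa was at -0.0077 and Rps14 at -0.0032. Without control 4, KO 8 and KO 16, Rpl34 was at 0.049. With each animal left out, Rpl34 ran from -0.28 to 0.11, Rps2 from -0.053 to 0.018, Rpl15 from -0.034 to 0.019 and Rpsa from -0.0037 to 0.047. The causes were not tested. No paired analysis was run. The replicate numbers are animal numbers, and the sample labels used here give no litter, so litters shared between the genotypes were not accounted for. Few counts limit Rps27, Rpl34, Rpl3l, Rpl30, Rpl39l, Rpl26 and Rpl10l, and why they are few was not tested; 2 control mice of each sex limit the interaction.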

Other observations

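The second component of the 76 genes, which parts Rplp2, Rpl41, Rpl24 and Rpl35 from Rps4l, Rpl31 and Rplp0, was lowest in control 13 (-0.64) and KO 8 (-0.41) and highest in control 3 (0.33) and KO 15 (0.32), in log2 units, so it parted neither the genotypes nor the sexes.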
